A study of Rattus norvegicus with 12 samples.

Results

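Ribosome biogenesis factors are the proteins that transcribe the ribosomal RNA precursor in the nucleolus, modify it, cut it and assemble it with ribosomal proteins into small and large subunits. A list of 45 such genes was read from arrays of fetal rat liver. The platform table gave 40 of them a probe assigned to 1 gene only, and all 40 passed the filter on dim genes, so 40 of the 10174 genes tested were ribosome biogenesis factors. Pes1, Nop2, Utp20 and Rrp12 had no such probe, and the only probe of Rrn3, the growth-regulated initiation factor of RNA polymerase I, was shared with other genes, so these 5 were not analysed here. Where a gene had several probes, the brightest was used.

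Livers were taken on day 19 of gestation from fetuses of Sprague Dawley rats. Dams were either fasted for 48 hr before delivery, which gave growth-restricted fetuses by the labels, or fed ad libitum as controls, with 3 dams per diet. Each diet had 3 arrays of polysome RNA, extracted from pooled polysome preparations, and 3 of total RNA from frozen liver, 12 arrays in all. Fasted and fed stand below for fetal livers from dams of that diet. The hepatocyte genes Alb and Afp had medians of 13.57 to 14.09 log2 in every group, near the top of the scale, as the labelled fetal liver would have. The labels call the arrays of a group biological replicates but do not say which fetuses each array holds or what was pooled, so p-values measure the spread between these arrays. Whole liver was used, so fewer cells of a type and less RNA per cell cannot be told apart. Values are log2(intensity + 1), and the arrays were normalized by the authors, so a difference is relative to the other transcripts on the array and does not measure RNA per liver or ribosomes per message.

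RNA polymerase I makes the long ribosomal RNA precursor with the help of Ubtf, which binds the ribosomal DNA. Small nucleolar RNPs of the box C/D kind, built on Fbl, Nop56 and Nop58, methylate ribosomal RNA, and those of the box H/ACA kind, built on Dkc1, Nhp2, Nop10 and Gar1, convert uridine to pseudouridine. Small subunit factors such as Heatr1, Utp15 and Mphosph10 form the processome on the growing precursor, and large subunit factors such as Bop1 and Wdr12 act on the pre-large particles. Fetal liver divides and grows quickly, and in many cell types these genes are known targets of the growth regulator Myc, which binds the E-box CACGTG. Roles are given here largely as known from yeast and human cells.

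The promoters of 42 of the 45 listed genes were in RefSeq's GRCr8 table, the windows running from 250 bases before the start to 50 after it (Bop1, Wdr43 and Gnl2 had none). CACGTG, which reads the same on both strands, occurred in 14 of the 42 windows (33.3%), beside 9.30% of 8453 genes tested that had a window and 6.65% of all 27457 windows. The ETS-type motif CCGGAAG, searched on both strands and not overlapping CACGTG, occurred in 20 (47.6%), beside 17.2% and 9.22%. The GC box GGGCGG was in 61.9% of the members' windows and 61.5% of those of tested genes, CCAAT in 21.4% and 38.2%, and TATAAA in 4.76% and 6.92%, both strands searched for each. These are counts of letters with no test. The CACGTG motif was in 0 of 7 RNA polymerase I genes, 6 of 16 small subunit and 5 of 9 large subunit genes. The ETS-type motif was in 3 of 7, 6 of 16 and 5 of 9 of these. Below are the 250 bases before the start of 1 gene from each of 4 roles, 5′ to 3′ on the gene's strand, chosen to show the combinations of motifs in windows that adjoin the annotated gene, with capitals marking CACGTG and CCGGAAG or its complement CTTCCGG:
Polr1c, chr9:22233068-22233317, plus strand: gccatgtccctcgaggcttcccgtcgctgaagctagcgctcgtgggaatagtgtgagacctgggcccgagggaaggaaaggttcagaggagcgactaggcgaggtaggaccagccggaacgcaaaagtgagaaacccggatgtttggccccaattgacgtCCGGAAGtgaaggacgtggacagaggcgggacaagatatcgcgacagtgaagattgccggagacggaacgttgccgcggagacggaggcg
Dkc1, chrX:157751401-157751650, plus strand: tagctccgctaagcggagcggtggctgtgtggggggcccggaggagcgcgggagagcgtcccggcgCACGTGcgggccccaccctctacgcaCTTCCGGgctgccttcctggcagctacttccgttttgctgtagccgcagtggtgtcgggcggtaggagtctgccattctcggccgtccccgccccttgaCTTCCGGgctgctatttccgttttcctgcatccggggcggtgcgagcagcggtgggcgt
Ltv1, chr1:9398558-9398807, minus strand: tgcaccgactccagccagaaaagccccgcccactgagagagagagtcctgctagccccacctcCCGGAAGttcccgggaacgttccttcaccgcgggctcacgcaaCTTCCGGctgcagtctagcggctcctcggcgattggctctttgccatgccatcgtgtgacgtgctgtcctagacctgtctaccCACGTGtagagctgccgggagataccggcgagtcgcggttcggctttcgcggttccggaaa
Ebna1bp2, chr5:137433284-137433533, plus strand: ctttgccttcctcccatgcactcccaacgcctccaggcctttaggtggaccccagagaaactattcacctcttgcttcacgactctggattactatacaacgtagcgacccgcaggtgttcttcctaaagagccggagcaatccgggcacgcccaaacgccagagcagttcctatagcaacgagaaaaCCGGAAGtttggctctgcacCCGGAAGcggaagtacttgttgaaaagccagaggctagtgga

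Polr1c, a subunit of RNA polymerases I and III, had 1 ETS-type match. Dkc1 and the pre-small-subunit export factor Ltv1 had CACGTG and 2 ETS-type matches each. Ebna1bp2, a large subunit factor, had 2 ETS-type matches in the bases shown, and its CACGTG lay after the start. Over all members, 24 of 28 ETS-type matches lay before the start and 2 across it, whereas 8 of 16 CACGTG matches lay before it, 1 across it and 7 after it. The 10 tested members with CACGTG had a median fasting difference of -0.15 log2 in total RNA and -0.18 in polysome RNA, and the 27 without it -0.13 and -0.10. For the ETS-type motif, 18 members with it had medians of -0.13 and -0.16, and 19 without it -0.14 and -0.10. The ranges of the members with and without each motif overlapped.

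In total RNA, ribosome biogenesis factors measured slightly lower in fetal livers from fasted dams than in those from fed dams, with no single gene past the threshold. Of 40 members, 37 had a difference below 0 (92.5%), where 49.8% of all genes tested did. The median difference of the members was -0.13 log2, beside 0.00067 over all genes tested. The test, limma with Benjamini-Hochberg adjustment over the 10174 genes, called 0 of 40 at an adjusted p below 0.05, beside 1.03% of all genes in either direction, 0.737% higher and 0.295% lower, and 10 of 40 members had an unadjusted p under 0.05, beside 1646 of the 10174 genes. The arrays of the diets did not overlap in 15 members, all lower in fasted dams, a share of the 40 to be read against the 11.9% of all genes that were apart and lower.

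By role, the 6 RNA polymerase I genes had a median of -0.16 log2, the 15 small subunit factors -0.14 and the 9 large subunit factors -0.12. The box C/D proteins stood at -0.21, the box H/ACA proteins at -0.098, and the 3 other nucleolar proteins Ncl, Nolc1 and Mybbp1a at -0.12. Differences were below 0 for 6 of 6 RNA polymerase I genes, 13 of 15 small subunit factors and 8 of 9 large subunit factors. The 3 exceptions were Imp3, Nob1 and Gnl2. No test between classes was made because genes of a class are not replicates.

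**Figure D1:**
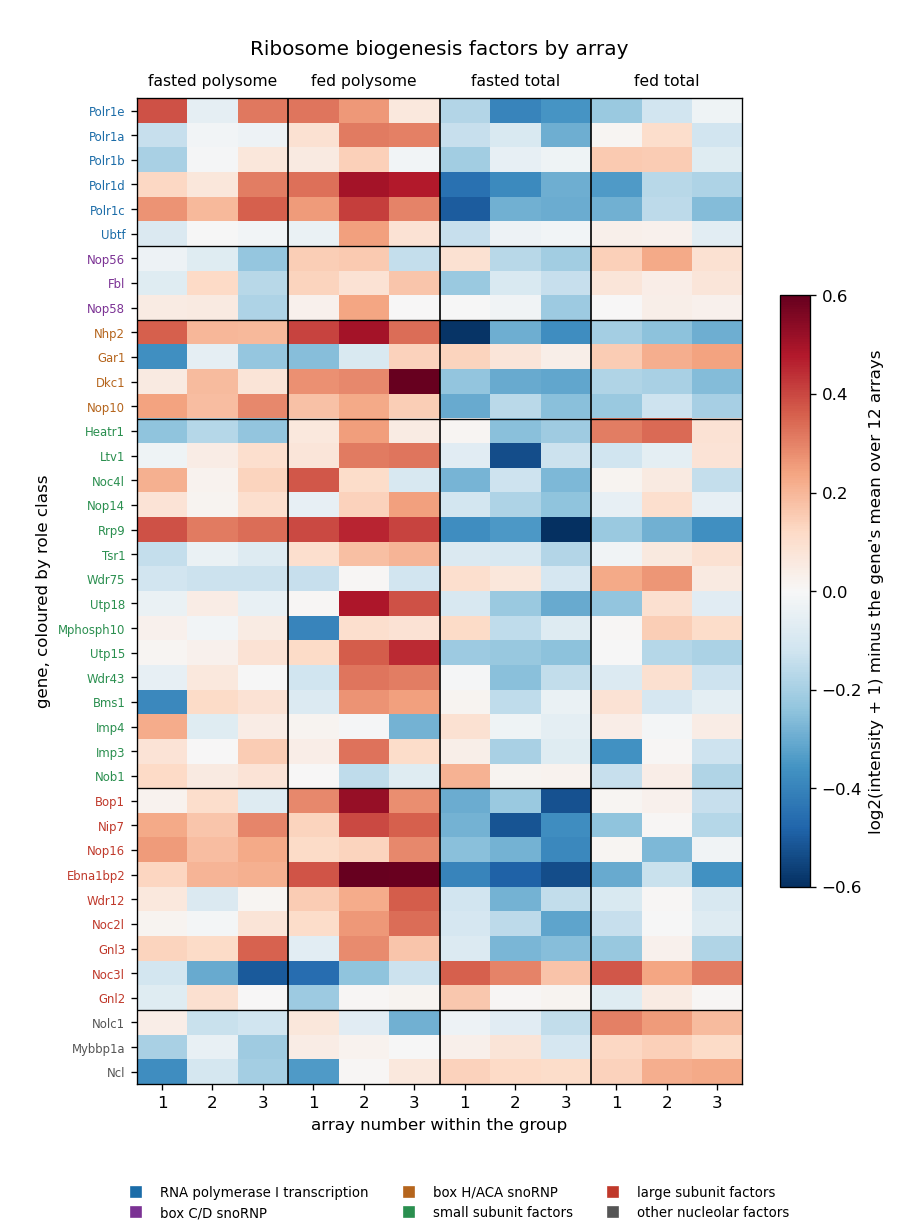
Each row is 1 of the 40 members, grouped by role, and each column is 1 of 12 arrays, 3 per group. Colour gives the array's log2(intensity + 1) minus the gene's mean over all arrays, in log2 units. The rows show lower values in most members in fasted total RNA, and higher values in polysome RNA for Rrp9, Nhp2, Polr1c and Ebna1bp2.

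Among RNA polymerase I genes, Polr1a, the largest catalytic subunit, measured 8.82, 8.87 and 8.66 log2 in fasted total RNA, against 8.97, 9.06 and 8.84 in fed total RNA. Its ranges overlapped, and the difference was -0.17 ± 0.088 log2 (limma, SE, adjusted p = 0.356). Polr1b, the second largest subunit, measured 9.10, 9.26 and 9.29 in fasted dams, against 9.47, 9.46 and 9.24 in fed dams, and again overlapped (-0.17, adjusted p = 0.384). Ubtf had the smallest difference of the class, at -0.06.

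Fbl, the methyltransferase of box C/D RNPs, measured 10.88, 11.01 and 10.96 log2 in fasted total RNA, against 11.17, 11.14 and 11.17 in fed total RNA. All 3 fasted arrays lay below all 3 fed arrays, and the difference was -0.21 ± 0.078 (limma adjusted p = 0.205). Nop56, a core protein of the same particles, measured 11.55, 11.30 and 11.25 in fasted dams, against 11.60, 11.69 and 11.55 in fed dams (-0.25, adjusted p = 0.26). Fasted replicate 1 was the high array of its group in Nop56. Nhp2, a box H/ACA core protein, measured 9.91, 10.20 and 10.13 in fasted dams, against 10.30, 10.26 and 10.21 in fed dams, with no overlap (-0.17 ± 0.087, adjusted p = 0.353). Gar1, also of these particles, measured 9.67, 9.61 and 9.58 in fasted dams, against 9.69, 9.76 and 9.78 in fed dams (-0.12, adjusted p = 0.609).

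Heatr1, a processome protein needed for precursor transcription and early cleavage, had the lowest difference of all members. It measured 9.13, 8.87 and 8.90 log2 in fasted total RNA, against 9.42, 9.46 and 9.20 in fed total RNA. No fasted array reached the lowest fed one, and the difference was -0.40 ± 0.094 log2, 1.32-fold lower (limma adjusted p = 0.0602). With dim genes filtered at the 60th percentile of level in place of the 40th, which tests fewer genes, its adjusted p was 0.0457, and 0.607% of those genes were called lower. Tsr1, which acts late in small subunit maturation, measured 9.77, 9.76 and 9.69 in fasted dams, against 9.84, 9.92 and 9.95 in fed dams (-0.16 ± 0.067, adjusted p = 0.251), without overlap. Nob1, the nuclease that makes the last cut of the small subunit RNA, had the highest difference of the members. It measured 10.95, 10.76 and 10.76 in fasted dams, against 10.60, 10.78 and 10.56 in fed dams, and the ranges overlapped (0.17, adjusted p = 0.317).

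Bop1, part of the complex with Wdr12 and Pes1 that processes large subunit RNA, measured 8.78, 8.86 and 8.56 log2 in fasted total RNA, against 9.09, 9.10 and 8.94 in fed total RNA (-0.31 ± 0.097, limma adjusted p = 0.135). Nip7, a factor of large subunit assembly, measured 8.95, 8.71 and 8.85 in fasted dams, against 8.99, 9.24 and 9.06 in fed dams (-0.26 ± 0.094, adjusted p = 0.199). Fasted arrays lay below all fed ones in both. Nolc1, a nucleolar chaperone of small nucleolar RNPs, measured 10.30, 10.26 and 10.17 in fasted dams, against 10.63, 10.58 and 10.51 in fed dams (-0.33 ± 0.091, adjusted p = 0.0995), again without overlap. Mybbp1a, a nucleolar Myb-binding protein, measured 10.98, 11.02 and 10.85 in fasted dams, against 11.07, 11.09 and 11.06 in fed dams (-0.12 ± 0.072, adjusted p = 0.431).

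On polysomes the same direction was seen with fewer members. Of 40, 31 had a fasting difference below 0 (77.5%), where 46.0% of all genes did, and the median of the members was -0.13 log2, beside 0.016 over all genes. Limma called 0 of 40, beside 2.01% of all genes in either direction, 1.59% higher and 0.423% lower, with 12 of 40 members at an unadjusted p under 0.05, beside 2122 of the 10174 genes, and a smallest adjusted p of 0.0511. In 12 members all fasted arrays lay below all fed arrays, beside 8.38% of all genes, and in 1 they lay above, beside 12.4%. The median was -0.12 for RNA polymerase I genes, -0.079 for small subunit and -0.065 for large subunit factors, -0.16 for box C/D and -0.16 for box H/ACA proteins. Without fed polysome replicate 2 the median of all members was -0.076, and without fed polysome replicate 1 that of large subunit factors was -0.15.

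**Figure D2:**
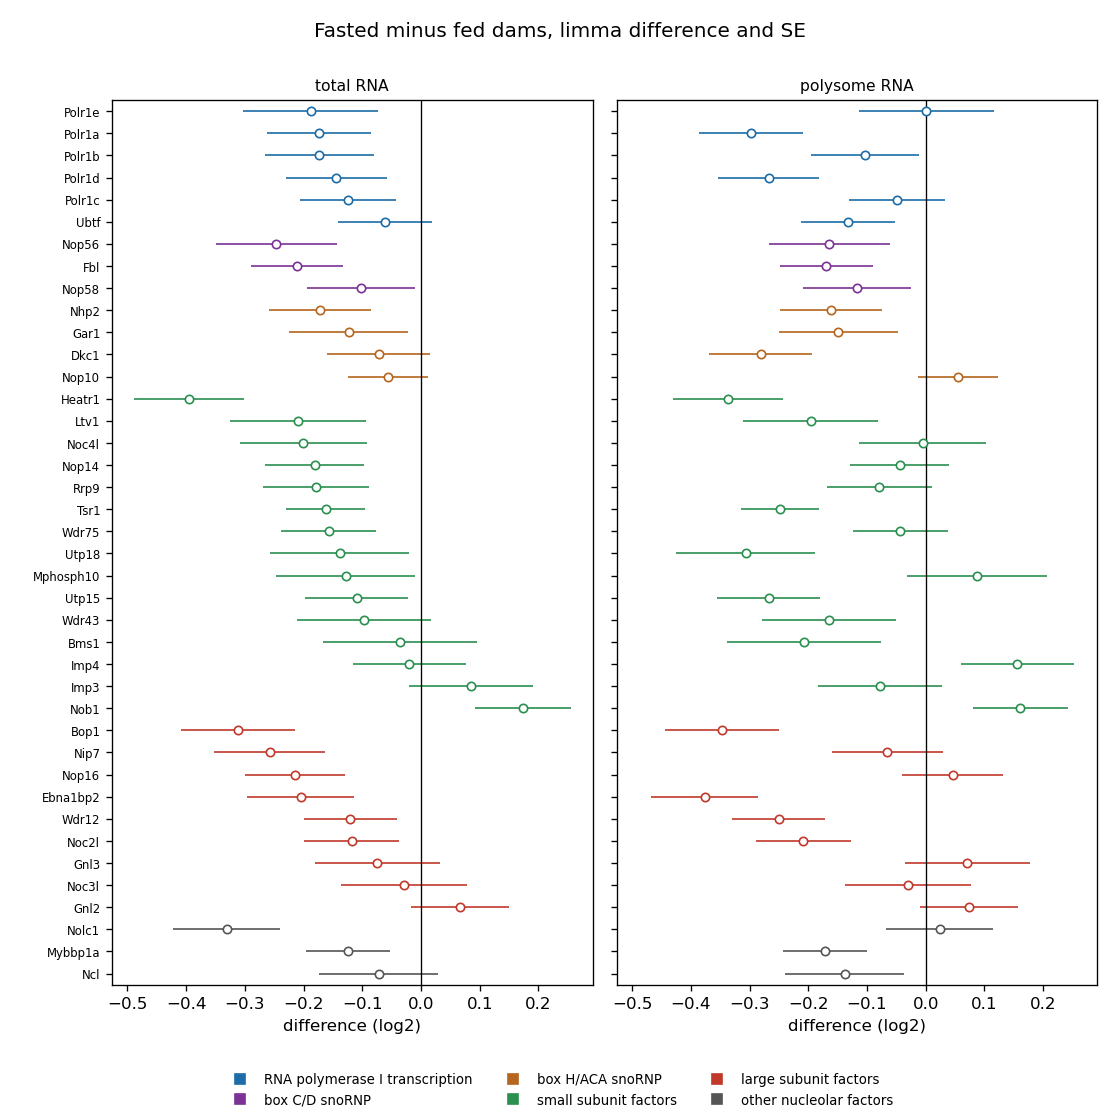
Points are the limma difference, fasted minus fed dams, of each of 40 members in total RNA (left) and polysome RNA (right), in log2 units, with bars of 1 SE. Open points did not pass the adjusted p threshold, and all points are open, with most left of 0 and Heatr1, Nolc1, Bop1 and Ebna1bp2 furthest left.

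Leaving out 1 of 2 polysome arrays gave calls. Fed polysome replicate 1 correlated least with its own group (mean r = 0.9922 over probes). Without it limma called 5 members lower, beside 2.03% of all genes: Ebna1bp2, Utp15, Utp18, Polr1a and Tsr1 (adjusted p = 0.0222, 0.0282, 0.0311, 0.0385 and 0.0466). Without fasted polysome replicate 2 it called 3, beside 1.59%: Ebna1bp2, Tsr1 and Bop1 (adjusted p = 0.0445, 0.0469 and 0.048). Without both arrays it called 10, beside 4.08% of all genes. Both arrays were picked out by an earlier look at these data, so these counts are a description. With all arrays kept, 5 other settings called 1 or 2 members lower, Ebna1bp2 in each: with Tsr1 at the 60th percentile filter (1.33% of genes called lower), alone with quantile normalization (0.757%), a trend and robust prior (1.02%) or a random replicate block (0.472%), and with Bop1 with the replicate number as a block (0.757%). The other 5 settings, which include a fit to the arrays compared alone, called 0, with an adjusted p of up to 0.134 for Ebna1bp2.

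Ebna1bp2 had the lowest difference on polysomes. It measured 10.38, 10.46 and 10.47 log2 in fasted polysome RNA, against 10.63, 10.96 and 10.85 in fed polysome RNA. The groups were apart, at -0.38 ± 0.091 log2, 1.30-fold lower (limma adjusted p = 0.0511), and its adjusted p was under 0.05 in 6 of 11 other settings and in 2 of 12 fits without 1 array. In total RNA it measured 9.86, 9.77 and 9.72 in fasted dams, against 9.95, 10.12 and 9.89 in fed dams (-0.20 ± 0.091, adjusted p = 0.293). A dimmer probe of Ebna1bp2 gave -0.20 on polysomes and -0.14 in total RNA. Bop1 measured 9.097, 9.184 and 8.998 in fasted polysome RNA, against 9.37, 9.60 and 9.35 in fed polysome RNA (-0.35 ± 0.097, adjusted p = 0.0724, and 0.0319 with the replicate number as a block).

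Tsr1 measured 9.72, 9.82 and 9.78 log2 in fasted polysome RNA, against 9.96, 10.04 and 10.06 in fed polysome RNA (-0.25 ± 0.067, limma adjusted p = 0.0662). Heatr1 measured 8.87, 8.95 and 8.88 in fasted polysomes, against 9.18, 9.37 and 9.17 in fed polysomes (-0.34 ± 0.094, adjusted p = 0.0711). The diets did not overlap in either gene, as in total RNA. Polr1a measured 8.82, 8.94 and 8.93 in fasted polysomes, against 9.05, 9.27 and 9.26 in fed polysomes (-0.30 ± 0.088, adjusted p = 0.0869). Polr1d, shared by RNA polymerases I and III, measured 10.46, 10.40 and 10.64 in fasted polysomes, against 10.66, 10.83 and 10.81 in fed polysomes (-0.27 ± 0.086, adjusted p = 0.107). Both were lower in every fasted array.

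Dkc1, the pseudouridine synthase, measured 9.37, 9.50 and 9.39 log2 in fasted polysome RNA, against 9.58, 9.60 and 9.92 in fed polysome RNA (-0.28 ± 0.088, limma adjusted p = 0.0995). In total RNA it measured 9.073, 9.009 and 9.002 in fasted dams, against 9.13, 9.12 and 9.05 in fed dams, a smaller difference of -0.07. Nhp2 measured 10.86, 10.70 and 10.69 in fasted polysomes, against 10.91, 11.00 and 10.84 in fed polysomes, and the ranges overlapped (-0.16, adjusted p = 0.311). Fbl measured 11.03, 11.22 and 10.93 in fasted polysomes, against 11.23, 11.19 and 11.26 in fed polysomes (-0.17, adjusted p = 0.241), and Nop56 measured 11.43, 11.39 and 11.23 in fasted polysomes, against 11.61, 11.62 and 11.32 in fed polysomes (-0.16, adjusted p = 0.392). Fasted polysome replicate 2 was the high array for Fbl. Mybbp1a measured 10.75, 10.90 and 10.73 in fasted polysomes, against 10.99, 10.97 and 10.94 in fed polysomes (-0.17 ± 0.072, adjusted p = 0.195). Ncl, nucleolin, measured 11.94, 12.21 and 12.11 in fasted polysomes, against 11.97, 12.32 and 12.38 in fed polysomes (-0.14, adjusted p = 0.48), with replicate 1 low in both diets.

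**Figure D3:**
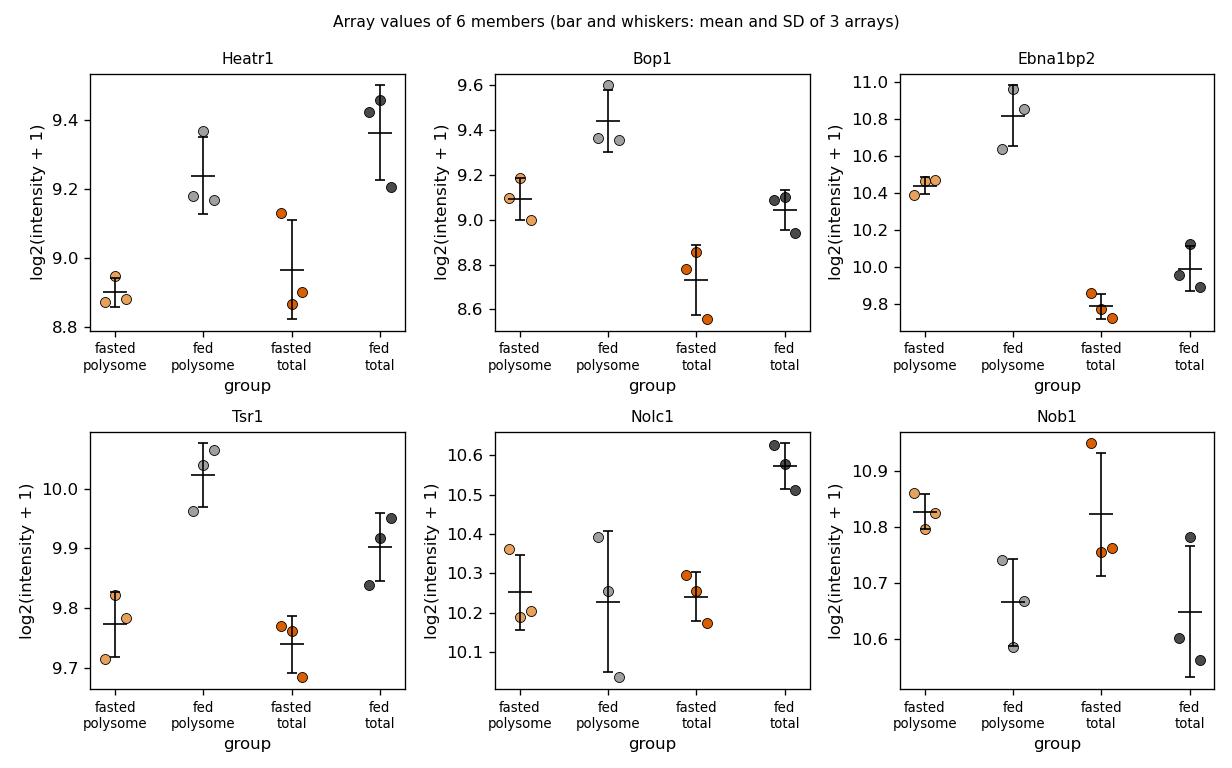
Points are single arrays, in log2(intensity + 1), of Heatr1, Bop1, Ebna1bp2, Tsr1, Nolc1 and Nob1 in 4 groups, with the mean as a bar and the SD of 3 arrays as whiskers. Fasted arrays lie below fed arrays in both RNA fractions for Heatr1, Bop1, Ebna1bp2 and Tsr1, in total RNA alone for Nolc1, and above or among them for Nob1.

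Of the 40 members, 30 were below 0 in both fractions, 2 (Nob1 and Gnl2) above 0 in both, 7 below 0 in total RNA alone and 1 (Imp3) below 0 on polysomes alone. The difference between the fasting effects, polysome minus total, was called in 0 of 40 members by limma and in 0 of all 10174 genes (0%), with 1 member and 549 genes at an unadjusted p under 0.05. Its median over members was 0.0033 log2. The member at an unadjusted p under 0.05 was Nolc1, which measured 10.36, 10.19 and 10.21 in fasted polysome RNA, against 10.39, 10.26 and 10.04 in fed polysome RNA, a difference of 0.02, where total RNA gave -0.33 (difference of effects 0.35 ± 0.13, adjusted p = 0.856). The median SE of such a difference was 0.134, and differences over all genes ran from -1.31 to 2.11 with 0 called, so a lack of calls does not show that the effects were alike.

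**Figure D4:**
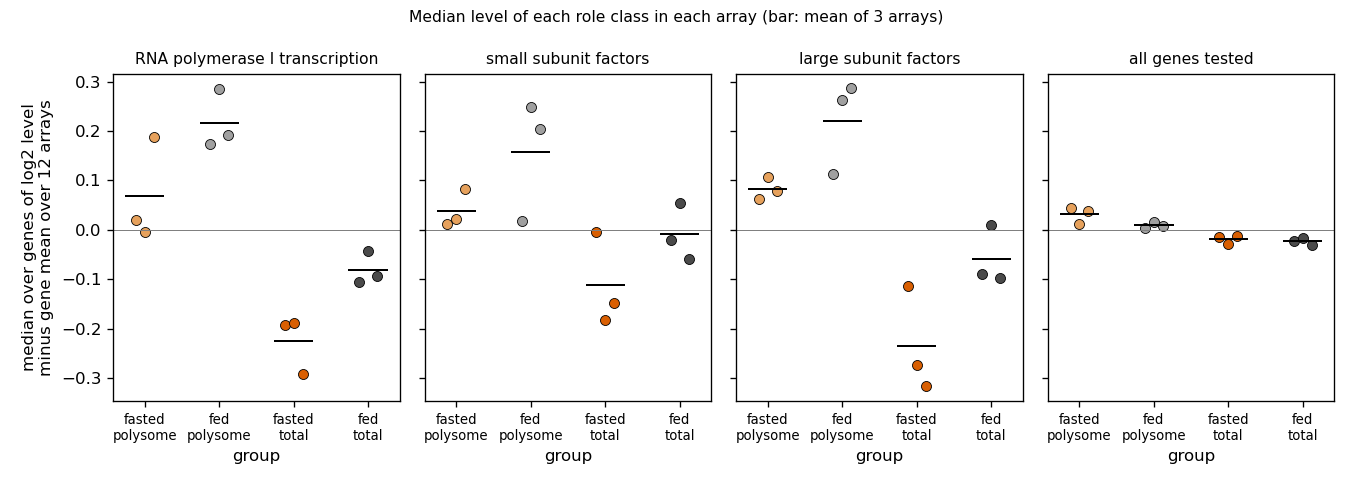
Each point is 1 array's median, over the genes of a role, of log2 level minus that gene's mean over 12 arrays, for RNA polymerase I genes, small subunit factors, large subunit factors and all genes tested. Bars are means of 3 arrays. Fasted arrays lie lower than fed arrays in total RNA for large subunit factors and RNA polymerase I genes. On polysomes they do so for large subunit factors alone, and barely. All genes tested stay near 0.

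Per array, the median of all 40 members, each gene taken relative to its mean over the 12 arrays, was 0.022 to 0.057 log2 in fasted polysome RNA, against 0.071 to 0.24 in fed polysome RNA. In total RNA it was -0.21 to -0.099 in fasted dams, against -0.064 to 0.032 in fed dams. The diets did not overlap in either fraction. For large subunit factors the diets were also apart in both fractions, but barely so on polysomes. These factors had -0.32 to -0.11 in fasted total RNA, against -0.098 to 0.0088 in fed total RNA. On polysomes they had 0.062 to 0.1075 in fasted dams, against 0.1127 to 0.29 in fed dams. The median of this class varied between arrays of a group with an SD of 0.078. RNA polymerase I genes were apart in total RNA (-0.29 to -0.19 in fasted dams, against -0.11 to -0.043 in fed dams) and overlapped on polysomes, and small subunit factors overlapped in both. All genes tested had -0.029 to -0.013 in fasted total RNA, against -0.030 to -0.017 in fed total RNA. Beside these, 7 of 8 proliferation markers were on the array and their summed intensity was 17781 to 20041 in fasted total RNA, against 20219 to 21324 in fed total RNA, with 6 of 7 measured genes below 0 and none called. Ccnb1 was higher in every fasted total array. Pcna and Mcm2 were lower in every fasted total array. Pcna measured 12.14 to 12.35 log2, against 12.45 to 12.56 in fed total RNA. Mcm2 measured 11.497 to 11.573, against 11.574 to 11.779, and so was barely apart. Cdk1 and Mcm5 overlapped. Top2a and Ccna2 overlapped, with medians of 11.70 and 11.60 log2 in fasted total RNA, against 11.75 and 11.59 in fed total RNA. On polysomes the sums overlapped, at 18266.5 to 18795.3 in fasted dams, against 18625.6 to 19710.7 in fed dams. Mcm2 and Mcm5 were lower in every fasted polysome array. Mcm2 measured 11.28 to 11.49 log2, against 11.53 to 11.68 in fed polysomes, and Mcm5 10.59 to 10.63, against 10.76 to 10.92. The other measured markers of the list overlapped on polysomes, Ccna2 with the higher median in fasted dams (11.67 against 11.52).

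Markers of other cells also differed between the diets. The summed intensity of 7 endothelial markers was 6027 to 6193 in fasted total RNA, against 5221 to 5549 in fed total RNA, with Esam and Pecam1 called higher. Cdh5 of the same list went the other way, at 9.04 to 9.06 log2 in fasted total RNA, against 9.11 to 9.22 in fed total RNA. The summed intensity of 7 macrophage markers was 5034 to 5495 in fasted total RNA, against 4398 to 4550 in fed total RNA, and 3462 to 3522 in fasted polysome RNA, against 2859 to 3038 in fed polysome RNA, with Cd68 called higher on polysomes. Exocrine pancreas markers summed to 1016 to 1039 in fasted total RNA, against 1092 to 3969 in fed total RNA. Of 8 tested, 6 were below 0, with Cpa1 called lower (-1.98, limma adjusted p = 0.0486) and Cpb1 the highest at 0.73. Hepatocyte markers had overlapping sums (99435 to 103776 in fasted total RNA, against 100028 to 103362 in fed total RNA), and so did those of red cell precursors (54094 to 55482 against 54360 to 56335). Such sums weigh the brightest genes most, and single hepatocyte markers went either way. The median in total RNA was 13.53 log2 in fasted against 13.44 in fed dams for Serpina1, and 12.68 against 12.96 for Apob. The part of any of these cells in the fasting differences of the ribosome biogenesis factors was not tested.

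Between the fractions, more members were higher on polysomes than lower, in both diets. Limma called 16 of 40 members higher on polysomes in fasted dams (40%, beside 25.5% of all genes) and 3 lower (7.5%, beside 18.2%). In fed dams it called 17 higher (42.5%, beside 24.1%) and 5 lower (12.5%, beside 19.4%). The members were brighter than most genes tested, 34 of 40 lying above the median level (member median 9.61 log2, beside 8.92). The shares of all genes, here and in the fasting contrasts, were not matched for level. The members' median difference was 0.15 log2 in fasted dams and 0.19 in fed dams, beside 0.054 and 0.042 over all genes. All polysome arrays lay above all total arrays in 19 members in fasted dams (beside 31.1% of all genes) and below them in 4 (beside 21.5%), and in fed dams above in 17 (beside 29.4%) and below in 6 (beside 23.5%). The 13 called higher in both diets were Polr1c, Polr1d, Polr1e, Dkc1, Nhp2, Nop10, Utp15, Rrp9, Bop1, Nop16, Nip7, Noc2l and Ebna1bp2. The 3 called lower in both were Gar1, Noc3l and Ncl, and 15 were called in neither. The call passed in every other setting and in all 12 fits without 1 array for 10 members in both diets: Bop1, Dkc1, Ebna1bp2, Nhp2, Nip7, Noc3l, Nop10, Polr1c, Polr1d and Rrp9.

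By role, the median difference between polysome and total RNA was 0.32 log2 for RNA polymerase I genes in fasted dams and 0.28 in fed dams. It was 0.36 and 0.31 for large subunit factors, 0.14 and 0.15 for small subunit factors, and 0.43 and 0.48 for box H/ACA proteins. It was 0.054 and 0.067 for box C/D proteins, none of which was called. Among large subunit factors 6 of 9 were called higher and 1 lower in each diet. Among small subunit factors 4 of 15 were called higher in each diet, a share near the 25.5% and 24.1% of all genes, and 1, Wdr75, was called lower in fed dams. Smaller differences lost their limma call without single arrays. In fasted dams this held for Utp15 (without fasted polysome replicate 3 or fasted total replicate 2 or 3, adjusted p = 0.0749, 0.0526 and 0.0583), and for Nop14 and Noc4l in 4 such fits each, with adjusted p of up to 0.0974 and 0.0721. In fed dams it held for Wdr75 (up to 0.0739, without fed total replicate 2), Utp18 (up to 0.113, without fed polysome replicate 2), Imp3 (up to 0.125, without fed total replicate 1) and Polr1a (up to 0.175, without fed total replicate 3). With the mean of a gene's probes in place of the brightest, the large subunit median in fasted dams was 0.25. This was the value of Gnl3, whose other probe had a mean of 4.29 log2, under the filter level of 6.07. With that probe averaged in, the call of Gnl3 in fasted dams was lost (adjusted p = 0.0531).

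**Figure D5:**
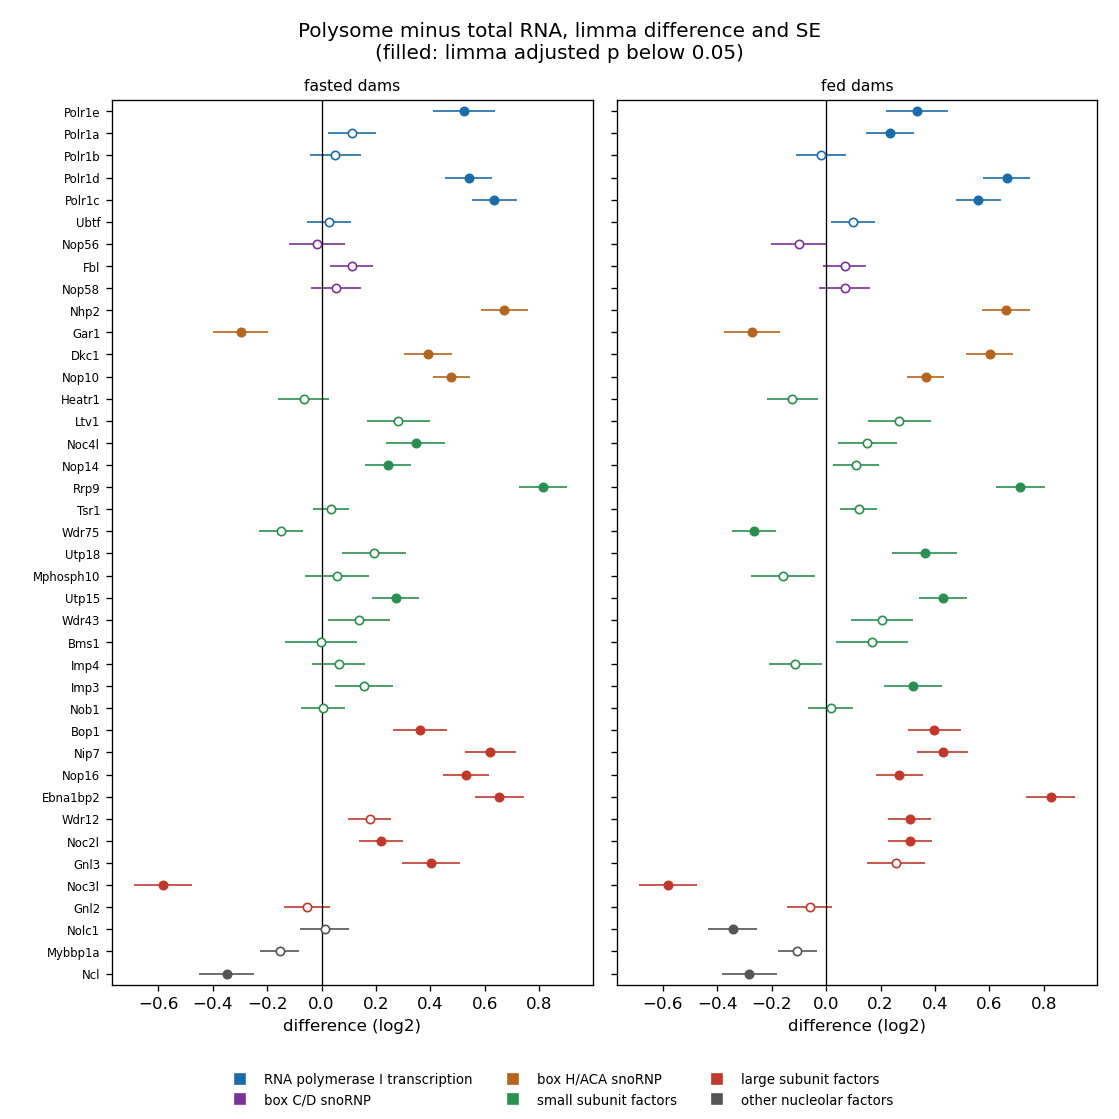
Points are the limma difference, polysome minus total RNA, of each of 40 members in fasted dams (left) and fed dams (right), in log2 units, with bars of 1 SE. Filled points passed the adjusted p threshold. Most of the 16 and 17 members called higher are RNA polymerase I, box H/ACA and large subunit genes, with Rrp9 furthest right in fasted dams and Ebna1bp2 furthest right in fed dams.

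Rrp9, the protein specific to the U3 small nucleolar RNP of the processome, rose most on polysomes in fasted dams. It measured 8.53, 8.46 and 8.48 log2 in fasted polysome RNA, against 7.77, 7.80 and 7.45 in fasted total RNA, 0.81 ± 0.090 log2 or 1.76-fold higher (limma adjusted p = 1.44e-05). In fed dams it measured 8.54, 8.60 and 8.55 on polysomes, against 7.92, 7.86 and 7.78 in total RNA, 1.64-fold higher (adjusted p = 4.47e-05). Every polysome array lay above every total array in both diets. Nhp2 was 1.59-fold higher on polysomes in fasted dams and 1.58-fold in fed dams (adjusted p = 4.88e-05 and 5.97e-05). Its partner Nop10 was 1.39-fold and 1.29-fold higher, and Dkc1 1.31-fold and 1.52-fold higher. The remaining H/ACA protein, Gar1, was lower, by -0.30 and -0.27 log2 (adjusted p = 0.0301 and 0.0447).

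Gar1's calls were among the least stable. In fasted dams its call was lost without fasted polysome replicate 1 (adjusted p = 0.127), fasted polysome replicate 3 (0.0759), fasted total replicate 1 (0.0898) or fasted total replicate 2 (0.0631). In fed dams it was lost in 9 of 12 such fits, with adjusted p of up to 0.17, without fed polysome replicate 1. Gar1 measured 9.17, 9.49 and 9.31 log2 in fasted polysome RNA, against 9.67, 9.61 and 9.58 in fasted total RNA, and 9.28, 9.45 and 9.68 in fed polysome RNA, against 9.69, 9.76 and 9.78 in fed total RNA. The polysome arrays lay below the total arrays in both diets.

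Among RNA polymerase I genes, the subunits shared with RNA polymerase III were higher on polysomes. Polr1c measured 10.42, 10.34 and 10.51 log2 in fasted polysome RNA, against 9.65, 9.86 and 9.85 in fasted total RNA (1.55-fold, limma adjusted p = 4.73e-05), and was 1.47-fold higher in fed dams. Polr1d measured 10.66, 10.83 and 10.81 in fed polysomes, against 10.00, 10.17 and 10.15 in fed total RNA (1.58-fold, adjusted p = 5.44e-05), and was 1.45-fold higher in fasted dams. Polr1e, a subunit particular to RNA polymerase I, was 1.44-fold higher in fasted dams and 1.26-fold in fed dams (adjusted p = 0.00246 and 0.031). The fed call for Polr1e was lost without fed polysome replicate 1 or 2 or fed total replicate 1 or 2 (adjusted p = 0.0964, 0.087, 0.109 and 0.0645). Polr1a, the largest catalytic subunit, was 0.23 log2 higher in fed dams (limma adjusted p = 0.0456), a call that held in 5 of 12 fits without 1 array. It was not called in fasted dams. The second largest subunit, Polr1b, differed by 0.05 in fasted and -0.02 in fed dams and Ubtf by 0.03 and 0.10. Neither Polr1b nor Ubtf was called.

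Ebna1bp2 rose most on polysomes in fed dams. With the array values given above, it was 1.57-fold higher on polysomes in fasted dams and 1.77-fold in fed dams (limma adjusted p = 9.02e-05 and 1.63e-05). Nip7 measured 9.46, 9.40 and 9.52 log2 in fasted polysome RNA, against 8.95, 8.71 and 8.85 in fasted total RNA (1.54-fold, adjusted p = 0.000176), and was 1.35-fold higher in fed dams (adjusted p = 0.00253). Bop1 was higher by 0.36 and 0.40 log2, with all polysome arrays above all total arrays in both diets. Nop16 was higher by 0.53 in fasted and 0.27 in fed dams by its brightest probe, whereas its other probe gave -0.02 and -0.31. The rise of Nop16 was therefore not shown by both probes, and without fed polysome replicate 3 or fed total replicate 2 its fed call was lost (adjusted p = 0.0853 and 0.108). Noc3l, by contrast, fell on polysomes: it measured 8.01, 7.82 and 7.62 in fasted polysomes, against 8.48, 8.42 and 8.29 in fasted total RNA, and 7.66, 7.88 and 7.99 in fed polysomes, against 8.50, 8.36 and 8.43 in fed total RNA (1.50-fold lower in each diet, adjusted p = 0.00071 and 0.000734). Noc2l, known to bind Noc3l in yeast, was higher by 0.22 and 0.31 (adjusted p = 0.0434 and 0.0078), the fasted call being lost in 9 of 12 fits without 1 array, with adjusted p of up to 0.174, without fasted total replicate 3, and 0.131, without fasted polysome replicate 3.

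Ncl measured 11.94, 12.21 and 12.11 log2 in fasted polysome RNA, against 12.45, 12.43 and 12.42 in fasted total RNA, -0.35 ± 0.10 (limma adjusted p = 0.0137). In fed dams it was lower by -0.28 (adjusted p = 0.0384). Polysome replicate 1 was the lowest array in each diet, and without it the adjusted p was 0.0645 in fasted and 0.15 in fed dams, while fed total replicate 1, 2 or 3 left out gave 0.0558, 0.0905 and 0.101. Nolc1 was called lower on polysomes in fed dams (-0.34 ± 0.091, adjusted p = 0.00798) and not in fasted dams (0.01, adjusted p = 0.937), and the difference between the diets in this was the one given above, adjusted p = 0.856. Beside these, limma called lower on polysomes 7 of 7 endothelial, 6 of 7 macrophage and 5 of 9 hepatocyte markers in fasted dams (18.2% of all genes), and 5 of 7, 5 of 7 and 4 of 9 in fed dams (19.4%). Markers of red cell precursors went either way in fasted dams. Klf1 measured 11.90 to 12.10 log2 on polysomes, against 11.59 to 11.79 in total RNA, and Tfrc 12.48 to 12.55, against 12.96 to 13.03. Endothelial markers summed to 3769 to 4119 in fasted polysome RNA, against 6027 to 6193 in fasted total RNA, and the part of such cells in the members' differences was not tested.

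Other genes of the pathway come from lists chosen with earlier results known, and calls in total RNA are to be read beside the 0.295% of all genes lower, those on polysomes beside 0.423% lower and 1.59% higher. Of 37 other small subunit factors, limma called 2 lower in fasted total RNA, the methyltransferase Emg1 (-0.39 ± 0.078, adjusted p = 0.0364) and Bysl (-0.31 ± 0.065, adjusted p = 0.0429), and the list's median was -0.13 log2 with 33 below 0. On polysomes it called Bysl lower (-0.30, adjusted p = 0.0398) and Dimt1, a ribosomal RNA methyltransferase, higher (0.41 ± 0.094, adjusted p = 0.0433), with a median of -0.050. Of 44 other large subunit factors, Rrp15 was called lower in total RNA (-0.40 ± 0.088, adjusted p = 0.0499) and none on polysomes. Their medians were -0.098 and -0.084, with 36 and 34 below 0. All of these calls were lost without single arrays. In total RNA, leaving out any of the 6 total arrays gave an adjusted p of 0.0526 to 0.127 for Emg1, 0.0526 to 0.147 for Bysl and 0.0816 to 0.155 for Rrp15. On polysomes, leaving out fasted polysome replicate 1 or 3 or fed polysome replicate 2 or 3 gave 0.0793 to 0.133 for Bysl and 0.0929 to 0.166 for Dimt1. Some arrays of the other fraction also ended a call, with adjusted p of up to 0.0711. With the replicate number as a block, the total RNA calls of Bysl and Rrp15 were lost (adjusted p = 0.0513 and 0.0583). Those of Emg1, Bysl and Rrp15 were lost without a filter, with centred arrays and with the arrays compared alone (limma adjusted p = 0.054 to 0.0841). That of Rrp15 was also lost without an added 1 (0.0504). On polysomes, the calls of Bysl and Dimt1 were lost without a filter (0.0609 and 0.0654) and with the arrays compared alone (0.126 and 0.118). Centred arrays also ended that of Bysl (0.0556).

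None of 20 other RNA polymerase I and III genes was called in either fraction (medians -0.11 in total and -0.025 in polysome RNA), nor any of 9 small nucleolar RNP assembly factors (-0.097 and -0.062) or 12 exosome genes (-0.16 and -0.030). The 9 genes of the Myc network had fasting medians above 0, at 0.076 log2 in total RNA with 6 above 0 and 0.16 on polysomes with 7 above 0. The list was drawn to hold Myc and its antagonists alike, so these medians give no direction for the action of Myc. Among the 9 genes, Mxi1, an antagonist of Myc, was called higher on polysomes in fasted dams (0.57 ± 0.099, limma adjusted p = 0.0198), and in total RNA it was higher by 0.40 (adjusted p = 0.0702). Its polysome call was lost without fasted polysome replicate 1 or 3 (adjusted p = 0.0892 and 0.0925) or fed polysome replicate 2 or 3 (0.0694 and 0.0614). It passed in 10 of 11 other settings and was lost with the arrays compared alone (limma adjusted p = 0.0851). The difference was 0.44 to 0.69 log2 over these 11 settings. Mxi1 had 2 probes, and the values are of the brightest. The 72 cytosolic ribosomal protein genes, whose proteins the pathway assembles into subunits, had fasting medians of -0.042 log2 in total and -0.054 in polysome RNA, with 57 and 52 below 0. Limma called 0 of the 72 in total RNA and 2 lower on polysomes, beside 0.423% of all genes.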

How the data were processed

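The 12 arrays, of polysome and total liver RNA, were of the Affymetrix Rat Gene 1.0 ST type. The deposited values were intensity values made by the authors with RMA, per the submitters' processing notes, which name no RMA version. Values of 3.62 to 21344 show a linear scale, so log2(intensity + 1) was tested. Array medians were 101.3 to 108.3 and arrays of a group correlated at 0.991 to 0.996, and precision is limited by having 3 arrays a group (median SE 0.0945 log2). Of 28826 probes, 15209 had 1 gene symbol in the platform table, for 14497 genes, and 15178 of them were matched to current symbols by Entrez identifier. The brightest probe was used, and genes were left out (4323) where their mean level was under 6.07, the 40th percentile over all 28826 probes, leaving 10174. A model of 4 group means was fitted with limma 3.58.1 in R 4.3.3 (lmFit, eBayes, 8 residual and 5.16 prior degrees of freedom), with two-sided p-values, Benjamini-Hochberg adjustment over all genes tested and a threshold of 0.05. It was tested on simulated data. Python 3.11.15 with matplotlib 3.10.9 made the figures.

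Array values were given for the 4 members of smallest p among those called and not overlapping in each contrast, and for the 2 of smallest p per role in each fasting contrast. Nob1, Noc3l and Nolc1 on polysomes, the values of Dkc1 in total RNA, and those of Gar1 and Nip7 on polysomes, were added after they were seen. From each pathway list at most 3 genes of smallest p were named. The members and lists were chosen with earlier results of these data known. Neutrophil markers, 7 in all, had 0 called by diet in either fraction. Replicate numbers pair the arrays of the 2 fractions within a diet by the data: deviations from group means correlated at 0.15 to 0.36 in 6 same-numbered pairs and at -0.22 to -0.023 in 12 others. Numbers did not pair the diets (-0.14 to 0.25). Alternatives were other filters, centring, quantile normalization, no pseudocount, the mean of probes, a trend and robust prior, fewer arrays and replicate blocks.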

Additional observations from a re-analysis of the deposited data

How the results depend on the processing

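Median differences of all members and of the 3 main roles kept their sign in every setting run, and no call was made on the difference between fasting effects in any. Members called lower by fasting in total RNA numbered 0, and 1 with a filter at the 60th percentile. On polysomes they numbered 0, against 2 with that filter, 1 with quantile normalization, 1 with a trend and robust prior, 1 with the replicate number within a diet as a random replicate block, 2 with the number alone as a fixed block and 10 without fed polysome replicate 1 and fasted polysome replicate 2, with ranges of 0 to 5 over the 12 fits without 1 array. Between fractions, members called lower numbered 1 to 4 in fasted dams and 2 to 5 in fed dams without 1 array, and in fed dams 3 without a filter, 3 with centred arrays, 3 with the arrays compared alone and 2 without both arrays named above. Without 1 array, the median fasting difference on polysomes was -0.15 to -0.076 for all members and -0.15 to -0.016 for large subunit factors. The median between fractions was 0.13 to 0.21 in fasted dams and 0.15 to 0.28 in fed dams for all members, and 0.27 to 0.39 for large subunit factors in fasted dams. It was 0.28 in fed dams without both arrays. It was 0.25 for large subunit factors in fasted dams with the mean of probes, the value of Gnl3 with its dim probe averaged in. Nop16 turned to -0.019 in fed dams with the mean of probes, whose other probe gave a negative difference. Of values of single genes under other settings, 1529 kept their direction and side of the threshold, 147 lost a call and 20 gained one. For the rest the cause was not tested.

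With the pairing as a fixed replicate block, members called higher on polysomes numbered 17 in fasted dams and 19 in fed dams, beside 16 and 17 without it, and 3 and 5 were called lower as before. No single gene examined lost its call between fractions with the block within a diet, and with the number alone as a block Noc2l in fasted dams had an adjusted p of 0.0575. A fixed block within a diet gives no fasting effect within a fraction, and a fit to the arrays compared alone gives no difference between effects.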
